A study of Homo sapiens with 12 samples.

Results

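The tissue inhibitors of metalloproteinases (TIMPs) and the proteins that bind TIMP-1 were followed at the RNA level in a pancreatic carcinoma cell line edited at TIMP1. The 10 genes were taken by symbol from the 63086 genes of the deposited table: the 4 family members TIMP1, TIMP2, TIMP3 and TIMP4, the surface proteins CD63, CD74, APP, APLP2 and LRP1, and MIF, a second ligand of CD74. Of these, 7 had a mean of at least 10 normalised counts over all libraries and were tested, and TIMP3, TIMP4 and MIF fell below that minimum. A normalised count is the number of read pairs assigned to a gene divided by a size factor of the library.

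TIMPs are small secreted proteins that sit in the active site of matrix metalloproteinases and related ADAM and ADAMTS enzymes and block them. TIMP-1 also acts as a ligand in its own right. It binds the tetraspanin CD63 at the cell surface, CD74, which is best known as the invariant chain of MHC class II and as the receptor of the cytokine MIF, and members of the amyloid precursor protein family, while LRP1 takes up TIMPs and their complexes with proteases from the cell surface.

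RNA came from MIA PaCa-2, an established human pancreatic ductal adenocarcinoma line, grown without further treatment and sequenced in 12 libraries, 3 named as biological replicates for each of 4 lines. WT was unmodified. CRISPR Control had gone through CRISPR-Cas9 editing, a cut by a nuclease that a guide RNA steers, and carried a silent point mutation that left the TIMP-1 protein unaltered. TIMP1 KO 1 and TIMP1 KO 2 were edited in exon 4 of TIMP1, with guides against separate stretches of that exon, and each is 1 clone. Replicates of a KO line therefore share a clone, and p-values measure the spread between the libraries of these lines, not between independent editing events. KO 1 and KO 2 are called deficient and WT and CRISPR Control competent, following the genotype. The libraries held 26908701 to 36093563 reads in genes, and a count of 0 allowed up to 2.49 to 3.56 normalised counts (3 reads; counting error only). KRT8, KRT18, KRT19, EPCAM, CDH1 and VIM, chosen as markers of this carcinoma line, were all detected in every library. CDH1 (E-cadherin) was lowest, and its mean of 84.9 in KO 2 and 128 in KO 1 stood beside 1424 in CRISPR Control and 1189 in WT. CRISPR Control itself differed from WT in 53.4% of all genes tested, which is the background against which a difference from a single competent line stands.

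TIMP1 was the edited gene and is given first. The gene (ENSG00000102265.12, chrX:47582408-47586789, plus strand, GRCh38 as for all coordinates here) lies inside an intron of SYN1, which is read from the other strand, and shares no exon base with it. Exon 4 of 6, the edited one, is 127 bases long and coding throughout. It is shown because both deficient lines were made there. Capitals mark each GG that closes an NGG triplet, the motif that the widely used Cas9 nuclease needs beside its target, and the plus strand holds 10 of them, overlapping ones included, against 13 on the minus strand. The sequence is chrX:47585205-47585331, plus strand, of the GRCh38 reference.
TIMP1 exon 4: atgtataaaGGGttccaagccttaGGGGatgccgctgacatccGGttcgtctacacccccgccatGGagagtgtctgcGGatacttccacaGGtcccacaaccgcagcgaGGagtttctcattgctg

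TIMP1 RNA was lower in both deficient lines and still present in each. The 3 WT libraries held 3837, 3290.2 and 3532 normalised counts and the CRISPR Control libraries 2285, 2826 and 2959. The counts were 1562, 1624 and 1613 for KO 1, while those of KO 2 were 1136, 1192 and 1155. All 6 deficient libraries lay below all 6 competent ones, with the highest KO 1 library under the lowest CRISPR Control library. The order of the lines was WT, CRISPR Control, KO 1, KO 2, and every pair of neighbours differed, with a log2 fold change of -0.41 from WT to CRISPR Control (limma, adjusted p = 0.000769), -0.74 from CRISPR Control to KO 1 (adjusted p = 6.5e-07) and -0.46 from KO 1 to KO 2 (adjusted p = 0.000398). KO 2 kept 32.7% of the WT mean. Deficient against competent lines gave -1.18 (SE 0.06, adjusted p = 6.03e-12). This is the RNA of the edited gene and does not measure the protein.

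TIMP2, the family member that besides inhibiting metalloproteinases takes part in the activation of MMP2 at the cell surface, was highest in CRISPR Control and lowest in the deficient lines. TIMP2 (ENSG00000035862.13, chr17:78852977-78925387, minus strand) held 2488, 2317 and 2451 normalised counts in WT and 3797, 4086 and 4396 in CRISPR Control. The KO 1 libraries held 1972, 1974 and 1999, those of KO 2 2027, 1999 and 2237. The deficient libraries all lay below the competent ones, but by a narrow margin against WT, whose lowest library was at 2317 beside 2237 in KO 2. CRISPR Control stood at 169% of the WT mean, which is 0.76 on the log2 scale (SE 0.07, adjusted p = 6.72e-08 by limma), and this distance was larger than that of either deficient line from WT.

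Against WT, TIMP2 differed by -0.29 in KO 1 (SE 0.07, adjusted p = 0.00457) and by -0.21 in KO 2 (adjusted p = 0.0185). The KO 2 value was lost in 6 of 24 alternatives. It was -0.12 (adjusted p = 0.148) with equal library totals and -0.12 (adjusted p = 0.15) after quantile normalization, and leaving out WT replicate 1, WT replicate 3, KO 2 replicate 1 or KO 2 replicate 2 gave adjusted p from 0.058 to 0.082. Against CRISPR Control the same lines differed by -1.04 (adjusted p = 3.57e-10) and -0.97 (adjusted p = 9.12e-10). The deficient lines differed from each other by 0.07 (95% interval -0.08 to 0.23, adjusted p = 0.456), a call that changed with equal library totals (0.18, adjusted p = 0.0479). The joint contrast of -0.63 (SE 0.05, adjusted p = 3.25e-09) thus averages -0.25 against WT alone and -1.01 against CRISPR Control alone.

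TIMP3, the family member that is bound to the extracellular matrix, was close to the limit of detection outside CRISPR Control. TIMP3 (ENSG00000100234.12, chr22:32801705-32863041, plus strand) lies in an intron of SYN3 without a shared exon base. It had 5, 1 and 3 reads in the WT libraries, 23, 17 and 32 in CRISPR Control, 0, 2 and 0 in KO 1 and 0, 14 and 5 in KO 2. All 3 CRISPR Control libraries were above the other 9, while WT, KO 1 and KO 2 overlapped one another. In normalised counts CRISPR Control held 25.1 ± 8.75 and WT 3.14 ± 2.39 (mean ± SD, n = 3 each). The ratio of CRISPR Control to KO 1, with 72 reads against 2, was 36.4 with a 95% counting interval from 9.73 to 307 (exact binomial).

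With the minimum lowered to a mean of 1 normalised count, which let 23399 genes into the fit, TIMP3 differed between CRISPR Control and WT by 2.78 on the log2 scale (SE 0.75, adjusted p = 0.00552 by limma), between KO 1 and CRISPR Control by -4.09 (adjusted p = 0.000118) and between KO 2 and CRISPR Control by -2.55 (adjusted p = 0.00735). Against WT neither deficient line passed the test, with -1.31 in KO 1 (adjusted p = 0.238) and 0.24 in KO 2 (adjusted p = 0.836). The joint contrast was -1.93 (adjusted p = 0.00468), with CRISPR Control within its competent mean. SYN3 itself had at most 4 reads in any library, all of its reads in the competent lines.

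TIMP4, the most tissue-restricted of the family, was not detectable at this depth in WT, KO 1 and KO 2. It had 0 reads in all 9 libraries of those lines, and 1, 2 and 0 reads in CRISPR Control, which is within the 3 reads that a count of 0 allows. TIMP4 (ENSG00000157150.5, chr3:12153068-12158912, minus strand) lies within SYN2 on the opposite strand and shares 14.2% of its exon bases with it. Per kilobase of exon, WT libraries held 2457 ± 190 normalised counts of TIMP1, 390 ± 14.4 of TIMP2 and 0.68 ± 0.52 of TIMP3 (mean ± SD, n = 3), so the family was represented by TIMP1 and TIMP2. In KO 2 the same levels were 803 ± 19.9 for TIMP1 and 336 ± 20.9 for TIMP2, and TIMP1 was the higher of the pair in every line.

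**Figure D1:**
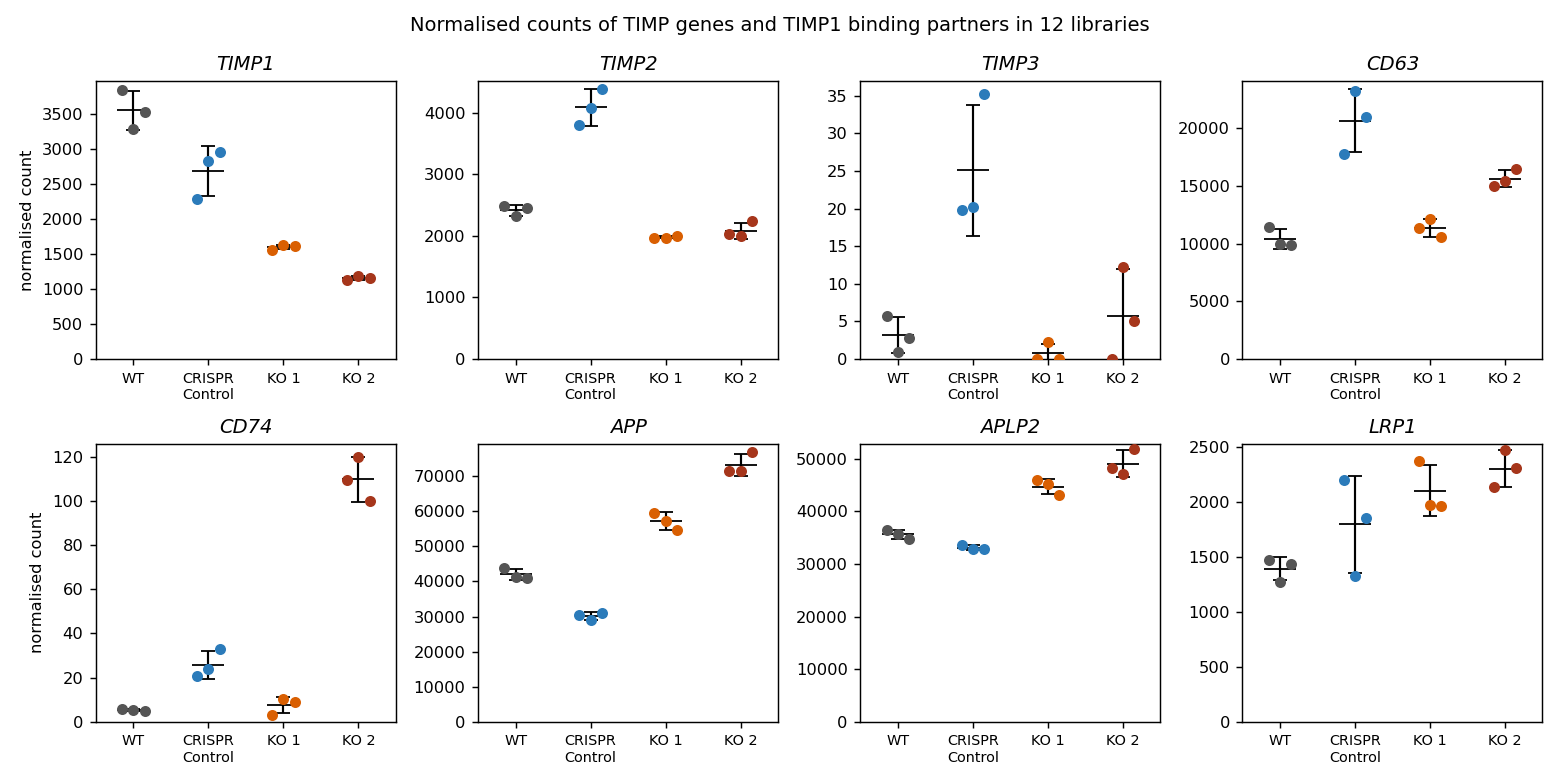
Normalised counts (vertical axes, linear from 0) of 8 of the genes in each of the 12 libraries, by line; points are libraries, horizontal bars line means and error bars the SD (n = 3), drawn down to 0 at most. TIMP1 and TIMP2 are lower and APP and APLP2 higher in all 6 deficient libraries than in all 6 competent ones, while CD63, CD74 and TIMP3 follow single lines.

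CD63, the tetraspanin through which TIMP-1 signals to integrin beta 1 and which marks late endosomes and exosomes, did not separate the deficient from the competent lines. CD63 (ENSG00000135404.12, chr12:55725323-55729707, minus strand) held 11396, 9923 and 9842 normalised counts in WT and 11307, 12110.4 and 10557 in KO 1. KO 2 held 15013, 15397 and 16462, and CRISPR Control 17779, 23216 and 20946. WT and KO 1 overlapped and differed by 0.13 (95% interval -0.06 to 0.32, limma adjusted p = 0.304). KO 2 was above and CRISPR Control further above both.

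The log2 fold change of CD63 against WT was 0.59 in KO 2 (SE 0.09, adjusted p = 2.06e-05) and 0.99 in CRISPR Control (adjusted p = 3.74e-08), and KO 2 was below CRISPR Control by -0.39 (adjusted p = 0.000805), a call lost after quantile normalization (-0.18, adjusted p = 0.055). The joint contrast was -0.13 (95% interval -0.27 to -0.0001, adjusted p = 0.0727). It turned to 0.36 (adjusted p = 0.000884) with WT as the only competent line and was -0.63 (adjusted p = 9.16e-07) with CRISPR Control as the only one. Without CRISPR Control replicate 1 it was -0.19 (adjusted p = 0.00588).

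CD74, a receptor of TIMP-1 and of MIF, had few reads in 3 lines and was highest in KO 2. CD74 (ENSG00000019582.17, chr5:150401637-150412969, minus strand) had 5, 6 and 5 reads in WT, 3, 9 and 10 in KO 1, 24, 20 and 30 in CRISPR Control and 132, 137 and 99 in KO 2. In normalised counts these were means of 5.29 ± 0.47, 7.4 ± 3.66, 25.8 ± 6.38 and 109.8 ± 10.1 (SD, n = 3). The means of WT and KO 1 were under the minimum of 10, so CD74 entered the fit through CRISPR Control and KO 2, where it was high. The libraries of KO 2 were above all others and those of CRISPR Control above WT and KO 1, which overlapped. On the log2(normalised count + 1) scale KO 2 differed from KO 1 by 3.83 (SE 0.35, limma adjusted p = 7.61e-08), from WT by 4.14 (adjusted p = 1.06e-08) and from CRISPR Control by 2.07 (adjusted p = 3.75e-05). KO 1 differed from CRISPR Control by -1.77 (adjusted p = 0.000233), opposite in sign to KO 2, and from WT by 0.30 (95% interval -0.43 to 1.04, adjusted p = 0.54). With so few reads the sizes for CD74 depend on the pseudocount, and one of 10 gave -1.05 for KO 1 against CRISPR Control, 1.21 for CRISPR Control against WT and 2.97 for KO 2 against WT. KO 1 against WT ran from 0.040 (adjusted p = 0.951) without KO 1 replicate 2 to 0.74 (adjusted p = 0.0844) without KO 1 replicate 1.

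The joint contrast for CD74 of 1.19 (adjusted p = 0.000345) was 2.22 against WT alone (adjusted p = 6.62e-06) and 0.15 against CRISPR Control alone (adjusted p = 0.67). Per kilobase of exon CD74 reached 24.3 ± 2.24 normalised counts in KO 2, beside 6451 ± 310 for CD63 in the same line. Even at its highest, CD74 RNA was thus far below that of CD63.

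The stretches just upstream of the RefSeq start sites are shown for CD74, whose level spread most between the lines among the tested members, and for TIMP1, the edited gene. Promoters of 9 of the 10 genes were in the RefSeq table (GRCh38.p14); that of TIMP2 was not. Each sequence is the 250 bases before the start, read on the gene's own strand, with CD74 at chr5:150412911-150413160 (minus strand) and TIMP1 at chrX:47582186-47582435 (plus strand). Capitals mark matches on either strand to a set of short motifs, none of which overlapped another here. The set was the AP-1 site, written TGANTCA. A common variant of that site, TGAGTAA, was included. The CCAAT box and the GC box (GGGCGG) are general promoter elements. The element bound by STAT factors, called GAS, was searched for as TTCNNNGAA.
CD74 promoter: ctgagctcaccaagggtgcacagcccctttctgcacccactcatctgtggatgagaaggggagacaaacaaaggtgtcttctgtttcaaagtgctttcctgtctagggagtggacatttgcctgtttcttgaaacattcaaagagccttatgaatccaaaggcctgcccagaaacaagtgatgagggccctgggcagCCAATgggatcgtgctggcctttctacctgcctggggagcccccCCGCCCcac
TIMP1 promoter: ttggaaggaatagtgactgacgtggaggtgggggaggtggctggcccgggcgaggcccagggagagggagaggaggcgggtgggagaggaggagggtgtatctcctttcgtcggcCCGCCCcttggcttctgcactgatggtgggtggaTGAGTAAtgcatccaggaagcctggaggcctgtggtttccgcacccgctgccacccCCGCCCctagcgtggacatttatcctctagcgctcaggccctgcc
CD74 had 1 CCAAT and 1 GC box, and TIMP1 had 2 GC boxes and 1 TGAGTAA. Among 35116 promoters of the same length, 32.01% held CCAAT, 42.6% GGGCGG and 2.21% TGAGTAA. Both TGANTCA and TTCNNNGAA were found in 6.57% of them, and in neither of the 2 shown. A match is a run of letters, not a measured site.

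CD74 normally travels with MHC class II and is switched on with it by the transactivator CIITA, so these genes were read beside it. CIITA was highest in CRISPR Control, at 14.9 ± 2.65 normalised counts, with 9.92 ± 1.76 in KO 2 and 8.66 ± 1.35 in WT (SD, n = 3 each), and its joint contrast of -0.26 did not pass the test (adjusted p = 0.416). HLA-DRA had at most 1 read and HLA-DRB1 at most 2 reads in any library. HLA-DPA1 was the class II gene with most reads in KO 2, at 21.1 ± 6.01 normalised counts beside 0.64 ± 1.1 in WT, and was below the minimum for testing. CTSS, the protease that trims CD74 in the endosome, was higher in all 6 deficient libraries, with means of 349.9 for KO 2 and 118 for KO 1 beside 48.1 for CRISPR Control and 24.5 for WT (joint contrast 2.55, SE 0.14, adjusted p = 9.83e-12). CD44, which signals together with CD74, held 33693 ± 777 in WT and 63961 ± 5213 in KO 2 (joint contrast 0.71, adjusted p = 6.78e-10).

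CXCR4, a further MIF receptor, was lowest in WT, at 76.9 ± 6.91 normalised counts. The other lines were at 423 ± 30.7 (KO 2), 366.5 ± 38.2 (CRISPR Control) and 262 ± 9.36 (KO 1). Its joint contrast was 0.98 (adjusted p = 5.89e-09), made up of 2.10 against WT alone and -0.13 (adjusted p = 0.257) against CRISPR Control alone.

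**Figure D2:**
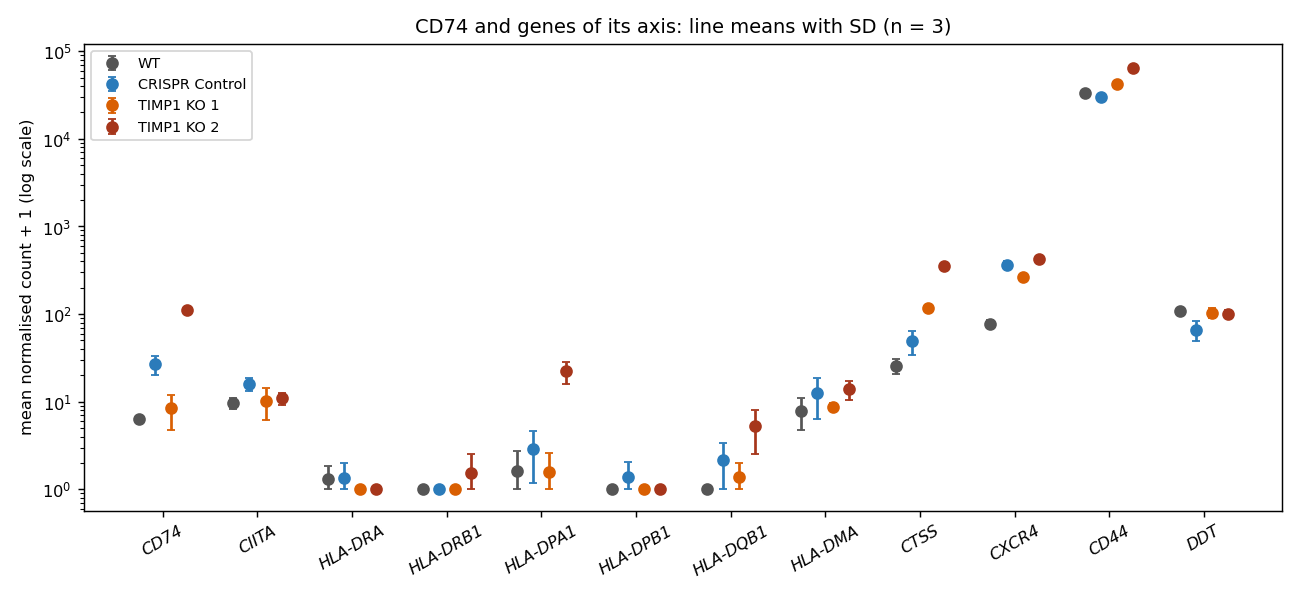
Line means of CD74 and of genes of its axis, as normalised count + 1 on a log axis, with the SD over 3 libraries (bars cut at a count of 0). CD74, CTSS and HLA-DPA1 are highest in KO 2, while HLA-DRA, HLA-DRB1 and HLA-DPB1 stay near a count of 0 in every line and CIITA line means run from 8.66 to 14.9.

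The summed level of 8 immune-cell markers was highest in KO 2, as CD74 was, and did not follow CD74 between CRISPR Control and KO 1. Their summed normalised counts ran from 248 to 303 in the KO 2 libraries and from 118 to 143 in KO 1, beside 70.0 to 90.1 in CRISPR Control and 67.9 to 87.6 in WT. The sum was made up mostly of CD14 (36.2 in WT and 161 in KO 2) and ITGAM (18.8 in WT and 91.7 in KO 2). Of the other 6, MS4A1 had 0 reads in all 12 libraries, CD3E at most 2, LYZ at most 6, PTPRC at most 9, CSF1R at most 12 and CD79A at most 28. CD79A and CSF1R had their highest means in CRISPR Control (18.4 and 11.8 normalised counts). The libraries were made from cultures of MIA PaCa-2, with no other cell type named for them. The sum is thus RNA of marker genes, not a count of immune cells, and its relation to the CD74 reads was not tested. Of the other lists, the sum of 3 endothelial markers stayed between 2.65 and 32.3, and that of 4 fibroblast markers was nearly all COL1A1 (7654 to 64798), with DCN at most 3 reads and LUM at most 6.

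APP, the amyloid precursor protein, was higher in all 6 deficient libraries than in any competent one. APP (ENSG00000142192.22, chr21:25880535-26171128, minus strand) held 43905, 41184 and 40855 normalised counts in WT and 30364, 29004 and 31079 in CRISPR Control. The KO 1 libraries were at 59589, 57369 and 54727, and the KO 2 libraries at 71577, 71406 and 76862. No library of 1 line overlapped with a library of another, and the order was KO 2, KO 1, WT, CRISPR Control. Against WT the log2 fold change was 0.45 in KO 1 (SE 0.07, limma adjusted p = 6.57e-05) and 0.80 in KO 2 (adjusted p = 1.82e-08), and CRISPR Control was at -0.48 (adjusted p = 1.6e-05). KO 2 was above KO 1 by 0.36 (adjusted p = 0.000545).

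The joint contrast for APP was 0.86 (SE 0.05, adjusted p = 2.09e-11), and it was 0.63 against WT alone and 1.10 against CRISPR Control alone. Per kilobase APP had the highest level of the 10 genes in WT (6353 ± 253 normalised counts), KO 1 (8660 ± 368) and KO 2 (11090 ± 469), and in CRISPR Control CD63 (8525 ± 1128) was above it (4563 ± 159).

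APLP2, the closest relative of APP among these genes, was higher in the deficient lines as well, by less. APLP2 (ENSG00000084234.18, chr11:130068147-130144811, plus strand) held 36473, 35713 and 34684 normalised counts in WT and 33639, 32857 and 32908 in CRISPR Control. The KO 1 libraries were at 45986, 45179.7 and 43062, and the KO 2 libraries at 48190.2, 47122 and 51924. The competent libraries all lay below the deficient ones. The competent lines differed by -0.10 (95% interval -0.25 to 0.04, limma adjusted p = 0.206), so APLP2, unlike APP, was not called between WT and CRISPR Control, although the difference between the genes was not tested.

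For APLP2 the log2 fold change against WT was 0.33 in KO 1 (SE 0.07, adjusted p = 0.000873) and 0.46 in KO 2 (adjusted p = 1.23e-05), and the joint contrast was 0.45 (SE 0.05, adjusted p = 1.35e-07), with 0.39 against WT alone and 0.50 against CRISPR Control alone. KO 2 and KO 1 differed by 0.13 (95% interval -0.01 to 0.27, adjusted p = 0.133), a value that passed the threshold with equal library totals (0.24, adjusted p = 0.00601), after quantile normalization (0.29, adjusted p = 0.000965) and by DESeq2 (0.15, adjusted p = 0.0406).

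LRP1, the endocytic receptor that clears TIMPs and protease complexes, was higher in the deficient lines than in WT, with CRISPR Control between them. LRP1 (ENSG00000123384.14, chr12:57128483-57213361, plus strand) held 1473, 1270.1 and 1429 normalised counts in WT and 2199, 1325 and 1854 in CRISPR Control. Counts were 2367, 1968 and 1960.2 for KO 1 and 2129, 2465 and 2301 for KO 2. The CRISPR Control libraries overlapped with those of WT, KO 1 and KO 2, with a coefficient of variation of 24.6%. Against WT the log2 fold change was 0.59 in KO 1 (SE 0.13, limma adjusted p = 0.00178) and 0.72 in KO 2 (adjusted p = 0.000138).

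Against CRISPR Control LRP1 differed by 0.25 in KO 1 (95% interval -0.03 to 0.53, adjusted p = 0.105) and 0.39 in KO 2 (adjusted p = 0.015), and single CRISPR Control libraries decided these values. Without CRISPR Control replicate 2, its lowest, the KO 1 value was 0.050 (adjusted p = 0.696) and the KO 2 value 0.18 (adjusted p = 0.123). Without replicate 1, its highest, they were 0.42 (adjusted p = 0.00574) and 0.55 (adjusted p = 0.000537). KO 2 replicate 2 mattered too, since without it KO 2 against CRISPR Control gave 0.34 (adjusted p = 0.0647), and limma without a trend gave an adjusted p of 0.0599 for it. CRISPR Control against WT was 0.34 (adjusted p = 0.0386), and was lost in 8 of 24 alternatives, among them without CRISPR Control replicate 1 (0.18, adjusted p = 0.23), without CRISPR Control replicate 3 (0.30, adjusted p = 0.102), without WT replicate 2 (0.27, adjusted p = 0.137) and without WT replicate 3 (0.36, adjusted p = 0.0649), while without CRISPR Control replicate 2 it was 0.54 (adjusted p = 0.000307). The deficient lines differed by 0.13 (95% interval -0.14 to 0.41, adjusted p = 0.454). The joint contrast was 0.49 (SE 0.09, adjusted p = 0.00015), and 0.32 (adjusted p = 0.0191) against CRISPR Control alone.

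MIF, the cytokine that shares the receptor CD74 with TIMP-1, had next to no reads in the table. MIF (ENSG00000240972.2, chr22:23894383-23895227, plus strand) had 6, 3 and 2 reads in WT, 0 in all CRISPR Control libraries, 0, 6 and 2 in KO 1 and 2, 0 and 4 in KO 2. In GENCODE release 44, 94.1% of its 730 exon bases are also exons of genes on the opposite strand, chiefly MIF-AS1, which had 0 reads in every library. A protein-coding gene on the same strand, ENSG00000251357, shares 48.9% of the MIF exon bases, whatever the strand setting. Genes with such overlap were low as a class. Of 633 protein-coding genes with 90% or more of their exon bases shared, 97.2% had a mean under 10 normalised counts, against 32.7% of the 15584 genes with less than 10% shared.

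Whether reads were assigned by strand is not stated in the sources used here, and the part of the overlap in the MIF counts was not tested. The table gives no level of MIF that can be set beside the other members, and no comparison between lines is drawn from it. The other members share between 0% (TIMP1, TIMP3, CD74 and APLP2) and 14.2% (TIMP4) of their exon bases with other genes.

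**Figure D3:**
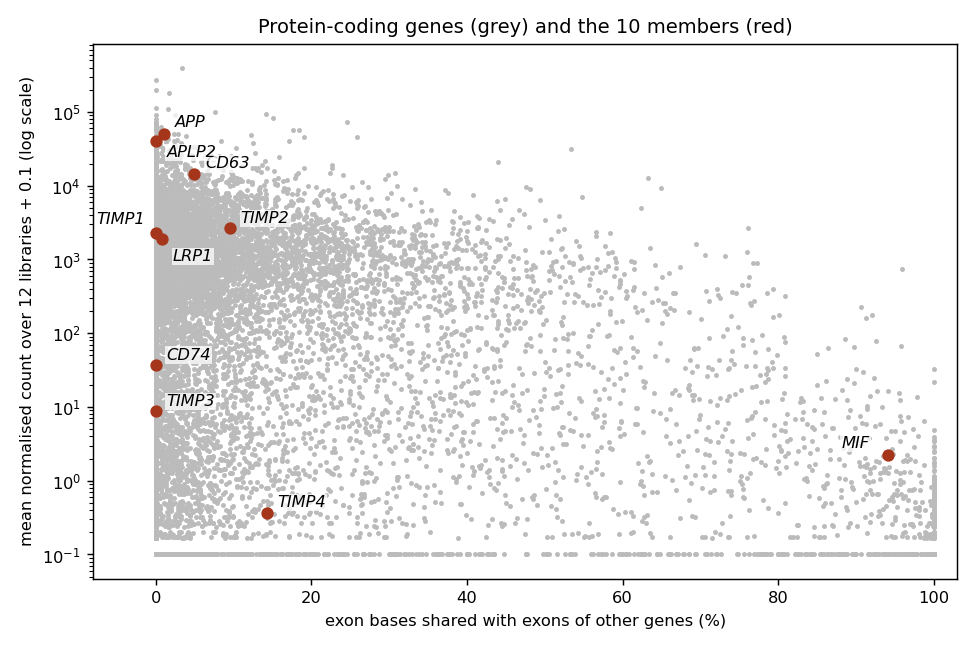
Share of a gene's exon bases that lie in exons of other genes (GENCODE 44, horizontal axis, %) and mean normalised count over the 12 libraries plus 0.1 (vertical log axis) for protein-coding genes in grey and the 10 members in red. MIF, at 94.1% shared, lies among genes with means near 0, and the other members share at most 14.2%.

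The calls of the 7 tested members are read against the share of all genes called in the same comparison, which was high throughout. Between KO 1 and WT 5 of 7 were called (background 35.5%), with APP, APLP2 and LRP1 higher (background 18%) and TIMP1 and TIMP2 lower (background 17.5%). Between KO 2 and WT all 7 were called (background 55%), 5 higher and 2 lower (background 27.1% and 27.9%). CRISPR Control differed from WT in 6 of them, the exception being APLP2, with 4 higher and 2 lower (background 53.4% in all, 27.2% higher and 26.3% lower).

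Against CRISPR Control 6 members were called in KO 1 (background 63%), 2 higher and 4 lower (background 31.7% and 31.3%), and 7 in KO 2 (background 67.7%), 4 higher and 3 lower (background 33.3% and 34.4%). The deficient clones differed from each other in 4 members (background 38.2%), of which CD63, CD74 and APP were higher in KO 2 (background 18.1%) and TIMP1 was lower (background 20.1%). The joint contrast called 6 (background 65.9%), with CD74, APP, APLP2 and LRP1 higher (background 32.9%) and TIMP1 and TIMP2 lower (background 33%), and of these 2 had an absolute log2 fold change of at least 1, TIMP1 and CD74 (background 14.5%). The same minimum kept 1 member between KO 1 and WT (background 8.21%), 2 between KO 2 and WT (background 14.7%), 1 between CRISPR Control and WT (background 14.7%) and 1 between the clones (background 8.25%). Against CRISPR Control it kept 2 in KO 1 (background 21.2%) and 3 in KO 2 (background 24.5%). In 4 of the 7 the 6 deficient libraries did not overlap with the 6 competent ones (background 24.7%), with APP and APLP2 above (background 12.3%) and TIMP1 and TIMP2 below (background 12.4%). TIMP1 and APP differed between all 6 pairs of lines, as did 6.37% of genes. All these contrasts share libraries and are not independent of one another.

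**Figure D4:**
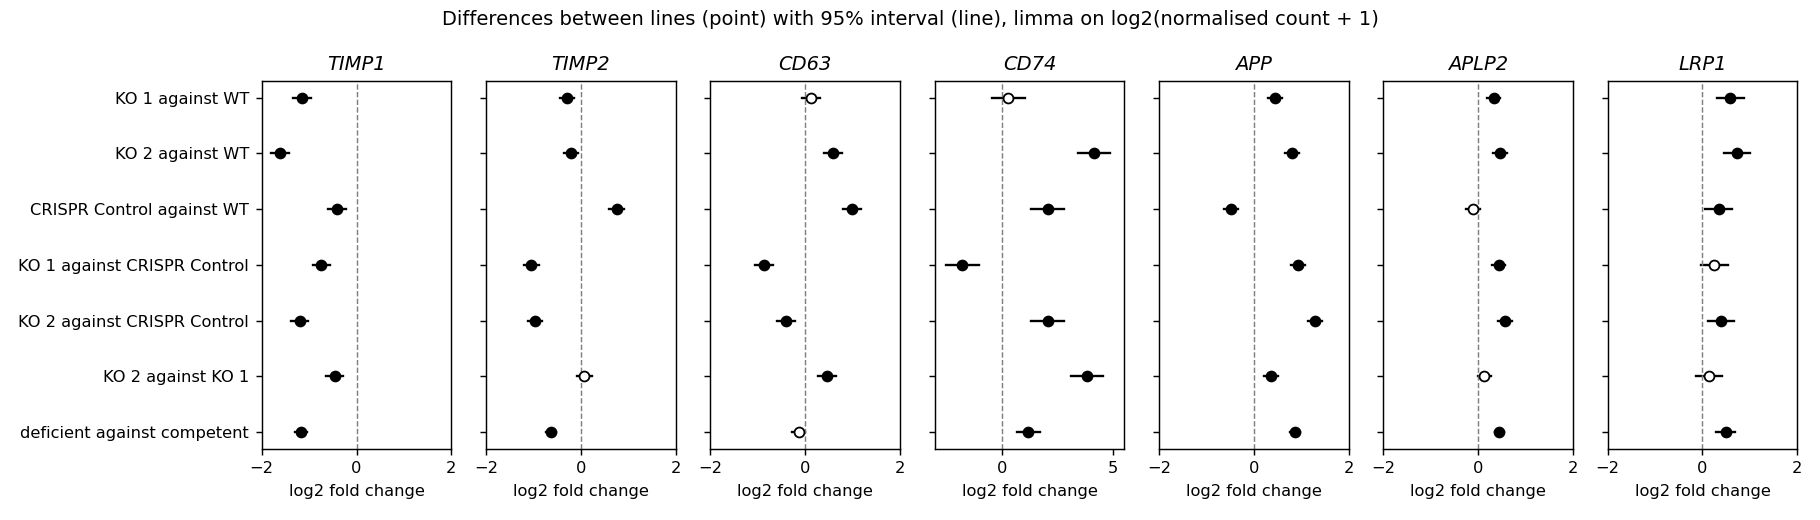
Log2 fold change (horizontal axes; the CD74 axis is wider) of the 7 tested members in 7 contrasts, with the 95% interval as a line; filled points had an adjusted p under 0.05 in limma. TIMP1 lies left of 0 and APP right of 0 in every contrast between a deficient and a competent line, whereas CD63 and CD74 change side between contrasts.

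The enzymes that TIMPs inhibit moved in both directions. Of 25 listed genes, the membrane-anchored inhibitor RECK included, 19 were tested, and 10 were higher and 7 lower in deficient than in competent lines (background 65.9% called, 32.9% higher and 33% lower), with a median log2 fold change of 0.22 beside 0.00 over all genes. MMP28 (epilysin) was higher by 4.24 (SE 0.18, adjusted p = 2.38e-13), with means of 216 normalised counts in KO 2 and 162 in KO 1, where WT had 36.2 and CRISPR Control 1.81, and the difference was 2.37 against WT alone. ADAMTS4, an aggrecanase, was lower, at -3.28 (adjusted p = 3.37e-08), and all of its deficient libraries were below the competent ones. It passed the minimum mean only through the competent lines, with 38.3 normalised counts in WT and 27.7 in CRISPR Control beside 5.46 in KO 2. The CRISPR Control mean of MMP28 and the KO 1 mean of ADAMTS4 (0.96) were below what a count of 0 allows, so that the size of these values depends on the pseudocount (3.09 and -1.69 with one of 10). MMP19 passed the minimum mean only through KO 2, with 31.9 normalised counts there beside 5.31 in KO 1, 3.74 in WT and 1.63 in CRISPR Control. Its joint contrast of 2.23 (adjusted p = 0.000288) was 1.01 with a pseudocount of 10, deficient and competent libraries overlapped, and KO 1 against WT was 0.76 (adjusted p = 0.388). MMP1, the interstitial collagenase, was called lower by -1.43 but changed side between clones, at -2.25 against WT in KO 1 (adjusted p = 4.92e-06) and 3.26 in KO 2 (adjusted p = 1.63e-08), and its joint contrast was 0.50 against WT alone (adjusted p = 0.0976). MMP14 and MMP2, the pair whose activation involves TIMP2, were both highest in CRISPR Control, as TIMP2 was, with MMP2 at 1248 ± 55.4 there beside 456 ± 23.5 in WT.

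Among genes that work with CD63, 15 of 16 were tested, and 6 were higher and 4 lower (median -0.01). These 10 of 15 are near the 65.9% of all genes called, 32.9% higher and 33% lower. The tetraspanins CD82 (2.05, SE 0.06, adjusted p = 1.21e-15) and CD9 (1.00, adjusted p = 1.12e-12) were higher in all 6 deficient libraries, which CD63 was not. ITGB1, the integrin through which CD63 relays TIMP-1, was higher by 0.65 (adjusted p = 2.63e-09). Against WT the log2 fold change of ITGB1 was 0.39 in KO 1, 0.34 in KO 2 and -0.56 in CRISPR Control. RAB27B, which drives exosome release, was lower, at -3.09 (adjusted p = 6.96e-13), which made -4.55 against WT alone and -1.64 against CRISPR Control alone. Its means were 4.77 normalised counts in KO 1, 77.02 in CRISPR Control, 107.7 in KO 2 and 582 in WT. The KO 2 mean thus lay above that of CRISPR Control, and deficient and competent libraries overlapped. KO 2 was above KO 1 by 4.21 (limma adjusted p = 9.04e-12). PDCD6IP (ALIX) was lower, at -0.29, which was lost against WT alone (-0.07, adjusted p = 0.39).

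Of 20 genes listed around CD74 and MIF, 10 were tested, 5 higher and 2 lower (median 0.22), near the 65.9% of all genes called, and most of the untested ones were class II genes. The lower ones were SPPL2A, the protease that clears the last CD74 fragment (-0.37, adjusted p = 5.8e-05), and CTSL (-0.32, adjusted p = 0.000315). Against WT alone they were -0.19 (adjusted p = 0.0543) and 0.13 (adjusted p = 0.177).

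Of 18 genes around APP, 16 were tested, 9 higher and 3 lower (median 0.20), beside 65.9% of all genes called, 32.9% higher and 33% lower. The gamma-secretase subunits NCSTN (0.76, SE 0.06, adjusted p = 2.75e-09) and APH1B (0.69, adjusted p = 1.46e-08) were higher in all deficient libraries, with NCSTN at 0.34 against WT alone. SORL1, a sorting receptor that keeps APP from its processing compartments, was lower, at -1.62 (adjusted p = 8.66e-12), with 213 normalised counts in KO 2, 787 in KO 1, 735 in WT and 2183 in CRISPR Control, and the difference of KO 1 from WT was 0.10 (adjusted p = 0.571). GGA3 was lower, at -0.26 (adjusted p = 0.00127).

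Of 21 genes of the LDL receptor family with the chaperone and ligands of LRP1, 18 were tested, 9 higher and 4 lower (median 0.18), again beside 65.9% of all genes. The LRP1 ligand THBS1 (thrombospondin-1) was higher by 2.73 (SE 0.06, adjusted p = 1.17e-17), with means of 2972 normalised counts in KO 2 and 2582 in KO 1 beside 648 in WT and 269 in CRISPR Control. LRP10 was higher by 1.18 (adjusted p = 2.82e-12), with 0.72 against WT alone. LRP12 (-0.85, adjusted p = 1.5e-09, with -0.31 against WT alone) and PLAU, the urokinase whose inhibitor complex LRP1 takes up (-0.83, adjusted p = 2.39e-11), were lower in all deficient libraries.

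The genes whose levels ran most like those of a member over the 12 libraries were sought among 11641 genes (11642 for CD74) with a mean of at least 100 normalised counts. The 3 closest were RFC2, E2F1 and COPS3 for TIMP1 (Pearson r of 0.989, 0.989 and 0.981), SUSD2, UPP1 and TUBA4A for TIMP2 (0.993, 0.993 and 0.992) and HBEGF, DRAXIN and RAI14 for CD74 (0.979, 0.976 and 0.974). An r above 0.9 was reached by 815 genes with APP, 745 with TIMP2, 589 with APLP2, 391 with TIMP1, 119 with CD63, 101 with CD74 and 7 with LRP1. These values describe the 4 lines, since the 12 points fall into 4 sets of 3 libraries.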

How the data were processed

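RNA of 12 MIA PaCa-2 libraries was measured by paired-end sequencing. The authors trimmed reads with Cutadapt, mapped them to GRCh38 with STAR, assigned them to genes with featureCounts and scaled each library by a DESeq2 size factor, so the deposited values are a signal of scaled read counts; the strand setting and annotation release are not given in the sources used here. Values were whole multiples of 1 step per library, which returned whole reads for all positive values within 0.01 reads. The 4 columns of line means and 1 blank line were not used.

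limma (version 3.58.1, R 4.3.3) was run with a trend on log2(normalised count + 1), which understates the change of low genes, for the 15987 genes with a mean of at least 10, which held 99.9% of reads. All 12 libraries and 4 line means entered the fit, with 1 spread per gene shared by the 4 lines. Read counts differed most between replicates of CRISPR Control, with a mean chi-square per gene of 17.7 to 29.5 between pairs of libraries. It was 4.53 to 5.9 in KO 1, 7.45 to 16.5 in KO 2 and 5.32 to 11.9 in WT. Tests against CRISPR Control may therefore give p-values that are too small. Tests were two-sided, with Benjamini-Hochberg adjustment over all genes and a threshold of 0.05. The scaling sets the typical gene equal between libraries, so a shift of most genes would be removed.

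Alternatives were pseudocounts of 0.5 and 10, minimum means of 1 and 50, an absolute log2 fold change of at least 1, equal library totals, quantile and TMM scaling, limma without a trend, only the lines compared in the fit, edgeR (4.0.16) and DESeq2 (1.42.0) on the recovered reads, a replicate block, and each library left out. Contrasts against WT alone and CRISPR Control alone were added after seeing the data. Exon overlap was computed from GENCODE release 44, whose identifiers matched exactly for all 10 members.

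The members and lists were chosen with earlier results of these data known, so no list was tested as a set. Named list genes were the called members with the 2 highest and 2 lowest joint contrasts of each list and the 3 genes with the highest r for TIMP1, TIMP2 and CD74; CD44, CIITA, the class II genes, ITGB1, MMP2 and MMP14 were named in addition, after their values were seen. 1 of the listed markers is not reported here and was left out of its summed level. Promoters were read from RefSeq (GRCh38.p14) and exon 4 from the GRCh38 genome.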

Additional observations from a re-analysis of the deposited data

Results flagged for a closer look

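In TIMP2 the highest of the 6 deficient libraries, KO 2 replicate 3, stood apart from the other 5, with a gap of 0.791 of the whole range of the group, above Dixon's critical value for 6 samples. The group pools the libraries of both clones, whose SD was 15.3 in KO 1 and 130 in KO 2, and the library was not tested within its clone. Chance flags about 1 group in 20, and 1 was found here among the members. The number of groups looked at is not given here.

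The change against WT differed between the deficient clones in 4 members, by the test of KO 2 against KO 1 in limma. It was more negative in KO 2 for TIMP1 (difference -0.46 on the log2 scale, adjusted p = 0.000398), and more positive in KO 2 for CD63 (0.47, adjusted p = 0.000465), CD74 (3.83, adjusted p = 7.61e-08) and APP (0.36, adjusted p = 0.000545), in each case with all 3 libraries of KO 2 on 1 side of all 3 libraries of KO 1. Each clone is a single line, so clone and guide cannot be told apart.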

How the results depend on the processing

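Of 1183 member values under alternatives, 1156 kept their direction and side of the threshold. Against WT alone the joint contrast of CD63 reversed to 0.36, and those of MMP1 and CTSL to 0.50 and 0.13. Against CRISPR Control alone CD63 was -0.63, CD74 fell to 0.15 and CXCR4 reversed to -0.13. CD63 ranged from -0.19 to -0.090 when single libraries were left out. Against WT alone, metalloproteinase genes called went from 17 to 11 of 19 tested, and CD74 and MIF axis genes from 7 to 3 of 10 tested. The share of all genes called against WT alone is not given here, so these falls are not read as particular to the lists. At a minimum mean of 50, metalloproteinase genes called were also 11. MMP7, MMP9, MMP10, MMP19, ADAMTS1 and ADAMTS4, called in the main fit, have means under 50 and left that fit. With an absolute log2 fold change of at least 1, members called were 1 in KO 1 against WT (8.21% of all genes), 2 in KO 2 against WT (14.7%), 1 in CRISPR Control against WT (14.7%), 2 in KO 1 (21.2%) and 3 in KO 2 (24.5%) against CRISPR Control, 1 between the clones (8.25%) and 2 in the joint contrast (14.5%), and in the latter the lists kept 8 metalloproteinase, 1 CD74 and MIF, 2 CD63, 1 APP and 2 LDL receptor family genes, because fewer genes reach that size. For the other changes the cause was not tested.

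Equal library totals moved the median of all genes by 0.11 (log2) in KO 2 against CRISPR Control, and 65.5% of the genes called between the clones were then higher in KO 2, against 47.4% as deposited. Replicates with the same number deviated together weakly or not at all (r from -0.129 to 0.16). Of 12 libraries, 6 correlated best with a library of their own number, and the count expected without pairing was not computed. With a replicate block the joint contrast of TIMP1 stayed at -1.18 (adjusted p = 1.17e-11), and no member call changed. TIMP3, TIMP4, MIF and CD74 have few reads, which limits what can be read from them, and each clone is a single line.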
